A study of Mus musculus with 5 samples.

Results

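Tgm3 and the Clca4 genes differed in opposite directions between tumor and normal colonocytes of the mouse. Tgm3 was read at 1713.9 CPM, UMI counts scaled by the total of the same cells, in columnar cells of normal colon and at 2.62 to 106 CPM in columnar cells of 4 treated tumor libraries, whereas Clca4a and Clca4b were read in the tumors and almost not in the normal cells. They belong to a set of 9 of the 23173 genes in the tables, grouped as genes of surface colonocytes, although several were not highest in the cells with the most surface program: the gasdermins Gsdmc2, Gsdmc3 and Gsdmc4, the chloride channel regulators Clca4a, Clca4b and Clca3b, the mucin Muc3, the Ly6/PLAUR protein Lypd8 and the transglutaminase Tgm3. The set was chosen from their measured levels over these same libraries, so that their levels by library are given as descriptions. Each of the 9 genes was found in the tables and passed the filters on low counts of both tests given here.

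The colon epithelium is renewed from stem cells at the base of the crypt, and colonocytes turn on a new set of genes as they move up to the surface, where they are shed. Genes of that set build a barrier against bacteria: Muc3 is a membrane mucin of the brush border, and Lypd8 is a GPI-anchored protein that binds flagellated bacteria and keeps them from the epithelium. Gasdermins can form pores in membranes, CLCA proteins are secreted and act on chloride channels and mucus, and Tgm3 crosslinks proteins and is best known from epidermis and hair.

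The 5 libraries were made by inDrop, a droplet method that counts RNA molecules by unique molecular identifiers (UMIs) at transcript ends. All came from mice labelled wild type. Tumors raised by azoxymethane (AOM) and dextran sodium sulfate (DSS), a carcinogen followed by a colitis agent, were taken from the distal colon under 5FU and Irinotecan on day 1 (replicates 1 and 2, called early), day 3 and day 6 (called late), with 1 library each. The sources differ on whether these days run from the start of treatment or from its end, and they serve here as names. The normal library was untreated colon prepared to release fibroblasts after crypts had been shaken off, so that its colonocytes are those left on the tissue. It carried no tumor label, and no tumor library was untreated, so that tumor, drug, dissociation and animal cannot be told apart in any comparison with it. Age was given only as a range at the start for the whole study, and of the strains C57BL/6J and C57BL/6J with 129 mixed it is not known which library had which.

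After removal of barcodes under 500 genes or over 15% mitochondrial counts, 7396 tumor cells and 1095 normal cells were kept, with 5132360 to 16904947 UMIs per library and medians of 2903 to 3601 UMIs per cell. Columnar cells, named from epithelial markers such as Epcam, Krt8 and Lgals4 with the 9 genes left out of clustering and naming, numbered 273 and 1231 on day 1, 883 on day 3 and 1357 on day 6, and 331 in the normal colon. Pairs of libraries shared 4 to 41 barcodes. RNA free in the droplets differed between libraries: the level of the 9 genes in non-epithelial cells, as a percentage of that in columnar cells, had a median of 36.6 and 26.0% on day 1, 51.0% on day 3, 23.1% on day 6 and 2.87% in the normal library. Low levels in the tumor libraries, and day 3 above all, are therefore read against that background. The libraries of day 1 replicate 1 and day 3 carried a single index and the other 3 a dual index.

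The gasdermin genes sit side by side on chromosome 15, with 12546 bases between Gsdmc2 and Gsdmc3 and 12705 between Gsdmc3 and Gsdmc4 (GENCODE genes on GRCm38, minus strand). Coding sequences of Gsdmc2 and Gsdmc3 were 97.1% identical, and 19.1% of the 50-base stretches in the last 500 bases of the Gsdmc2 transcript also stood in that of Gsdmc3, so that counts of this pair are less certain than those of Gsdmc4, with 4.66% shared. Clca4a and Clca4b are neighbours on chromosome 3, 19950 bases apart and 96.0% identical in coding sequence, but shared no such stretch at the transcript end. Clca3b lies on the same chromosome with 55.3% identity to Clca4b. Lypd8 is on chromosome 11, Muc3 on chromosome 5 and Tgm3 on chromosome 2.

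RefSeq promoter windows on GRCm38.p6, from 250 bases before to 50 after the start, were found for 6 of the 9 genes. The window of Tgm3, which was lower in each tumor library than in the normal colon, and that of Clca4b, which was higher in each, are shown because these 2 genes carry the contrast between normal and tumor colonocytes. That of Gsdmc3, read in both, is shown beside them. Capitals mark matches on either strand. The letters searched were TATANA for the box at which transcription machinery assembles. They were TTTATNG for factors of the CDX family.
Tgm3 chr2:130012090-130012389 (plus strand): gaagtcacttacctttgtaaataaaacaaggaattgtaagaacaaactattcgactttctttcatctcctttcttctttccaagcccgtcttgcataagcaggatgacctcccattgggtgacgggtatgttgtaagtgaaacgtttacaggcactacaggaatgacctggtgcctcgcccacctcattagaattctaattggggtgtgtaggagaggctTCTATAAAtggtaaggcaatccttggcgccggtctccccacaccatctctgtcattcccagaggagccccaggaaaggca
Clca4b chr3:144932480-144932779 (minus strand): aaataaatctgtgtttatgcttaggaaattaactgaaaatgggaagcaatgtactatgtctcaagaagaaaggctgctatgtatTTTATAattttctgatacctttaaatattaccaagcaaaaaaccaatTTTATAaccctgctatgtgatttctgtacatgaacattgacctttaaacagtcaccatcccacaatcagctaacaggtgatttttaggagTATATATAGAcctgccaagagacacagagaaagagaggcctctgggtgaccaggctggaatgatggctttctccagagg
Gsdmc3 chr15:63878509-63878808 (minus strand): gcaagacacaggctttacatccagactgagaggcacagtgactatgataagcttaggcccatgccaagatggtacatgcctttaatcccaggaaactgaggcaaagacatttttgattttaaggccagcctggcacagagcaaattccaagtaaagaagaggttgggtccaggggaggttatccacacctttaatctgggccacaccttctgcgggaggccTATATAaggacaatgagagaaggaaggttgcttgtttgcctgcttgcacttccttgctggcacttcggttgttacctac
In the Tgm3 window a CDX match at bases 222 to 228 overlapped 2 TATA matches, in Clca4b 5 TATA matches were found, and in Gsdmc3 a single TATA match began at base 222. Of 32851 promoter windows of that length, 24.7% held a TATA match and 10.9% a CDX match. CAAAGTCCA, the letters searched for HNF4, stood in 0.475% of windows and in no window of these genes. TTCNNNGAA, for STAT factors, stood in 8.3% of windows and among these genes in that of Muc3, whose RefSeq start lies outside the GENCODE gene. AGATAA, for GATA factors, stood in 11.2% and in 1 of the 2 windows of Lypd8. The letters are a description of the windows and not evidence of binding.

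Tgm3 separated normal from tumor colonocytes. Its level in columnar cells was 2.62 CPM (8 UMIs) and 3.27 CPM (37 UMIs) in day 1 replicates 1 and 2, 3.06 CPM (13 UMIs) on day 3, 106 CPM (906 UMIs) on day 6 and 1713.9 CPM (5366 UMIs) in the normal colon. The normal level was 655 times that of day 1 replicate 1 (95% counting interval 332 to 1519), 525 times that of replicate 2 (380 to 746), 561 times that of day 3 (328 to 1054) and 16.1 times that of day 6 (15.02 to 17.3). On days 1 and 3 the Tgm3 reading did not stand clear of free RNA, since non-epithelial cells of the same libraries had 3.97, 1.71 and 1.56 CPM. Day 6 was the exception among tumors, with 22.3 CPM in non-epithelial cells against its 106.

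Clca4a and Clca4b went the other way. Clca4a was read at 51.7 and 161 CPM in the day 1 replicates, 36.9 on day 3 and 216 on day 6, against 2.56 CPM in the normal colon, where it rested on 8 UMIs. Clca4b stood at 108 and 161 CPM on day 1, 74.1 on day 3 and 1451.4 on day 6, against 1.92 CPM and 6 UMIs in the normal colon. Both Clca4 genes were thus above the normal level in each of the 4 tumor libraries, by 14.4-fold (day 3, interval 7.15 to 34.1) to 84.4-fold (day 6, 42.7 to 196) for Clca4a and by 38.6-fold (day 3, 17.6 to 106) to 757-fold (day 6, 348 to 2064) for Clca4b. In day 1 replicate 1, Clca4a in non-epithelial cells was 56.4% of the columnar level, so that this library gives the least certain Clca4a value.

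Clca3b, their relative, did not follow them. It was read at 144 and 178 CPM on day 1, 461 on day 3 and 799.5 on day 6, with the normal level of 355 CPM inside that range. Day 1 lay below the normal colon and days 3 and 6 above it. In day 1 replicate 1 its level in non-epithelial cells was 89.3% of that in columnar cells.

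Over all columnar cells of a library, the gasdermins were highest in the normal colon. Gsdmc4 was read at 243 and 93.2 CPM on day 1, 289 on day 3 and 795 on day 6, against 1041.6 in the normal colon. Gsdmc2 stood at 202, 139, 256 and 460.2 CPM in the same order of tumor libraries and at 494 in the normal colon, so that day 6 was only 1.07 times below it (interval 1.01 to 1.14). Gsdmc3 was read at 40.9, 20.2, 36.7 and 108 CPM in the tumors and at 231 CPM in the normal colon. Each of the 3 genes had its lowest tumor level in day 1 replicate 2 and its highest on day 6. Gsdmc, the fourth gene of the cluster and no member of the set, stayed at 0.530 to 4.47 CPM in all 5 libraries.

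Muc3 and Lypd8 were read in each library. Muc3 was at 1052.6 and 835 CPM on day 1, 2263.2 on day 3, 2554.3 on day 6 and 3722.6 in the normal colon. Muc3a, a gene annotated upstream of Muc3 on the same strand, stayed at 25.2 to 74.3 CPM. Lypd8 was at 2654.7 and 2941.1 CPM on day 1, 4401.9 on day 3, 19046.3 on day 6 and 6774.8 in the normal colon, so that day 6 alone among the tumors lay above the normal level, by 2.81-fold (interval 2.77 to 2.85).

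**Figure D1:**
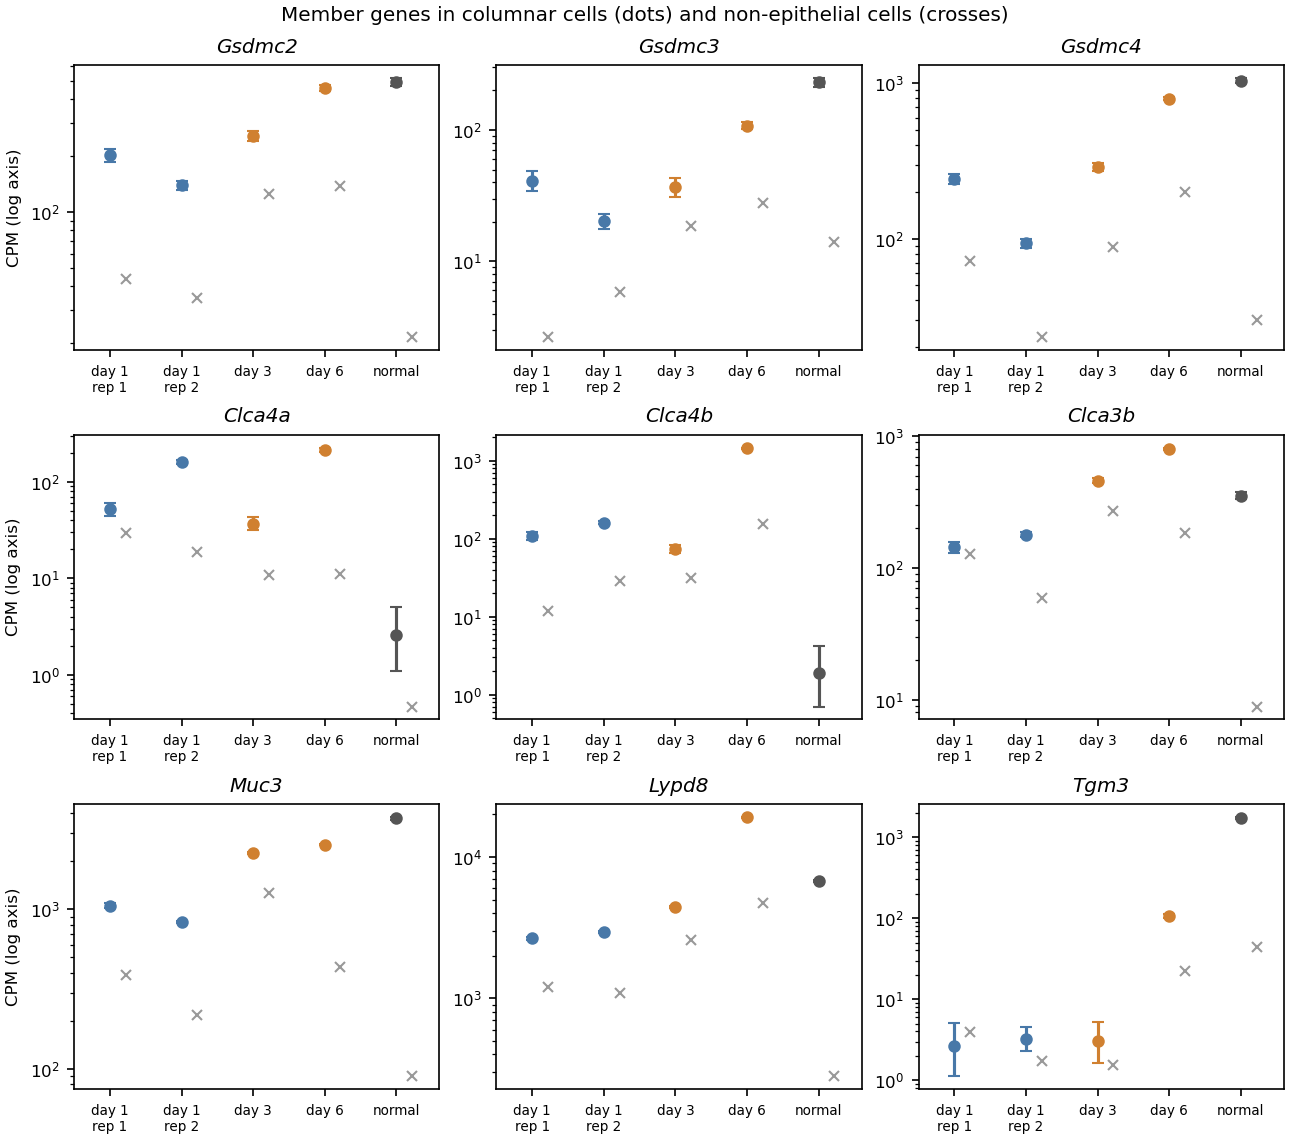
CPM (log axis) of each gene in columnar cells of the 5 libraries, with bars for the exact 95% Poisson interval, which covers counting error only, and crosses for non-epithelial cells of the same library. Tgm3 in the normal colon (1713.9 CPM) lies far above the tumor libraries (2.62 to 106 CPM), while Clca4a and Clca4b lie far below them.

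A gene was counted as apart from the normal colon where it differed at least 4-fold in the same direction in each of the 4 tumor libraries. Of the 9 genes, Tgm3 was lower, beside 4.27% of 11049 genes, and Clca4a and Clca4b were higher, beside 3.93%. These counts rest on the contrast from which the genes were chosen and nothing is read from them. The mean log2 difference, tumor minus normal with 1 CPM added, was -1.04 in the median of the 9 genes and 0.14 in that of all genes. It ran from -7.57 for Tgm3, through -2.41 for Gsdmc3, -1.95 for Gsdmc4, -1.31 for Muc3, -1.04 for Gsdmc2, -0.42 for Lypd8 and -0.18 for Clca3b, to 4.69 for Clca4a and 6.17 for Clca4b. Values as small as those of Lypd8 and Clca3b turned sign with the choice of cells or libraries. Without the 2 low-confidence columnar clusters described below, Lypd8 was at 0.03 and Clca3b at 0.23.

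Other genes of surface colonocytes divided as well. Of 18 tested genes on a surface colonocyte list, 6 were lower at least 4-fold in the 4 tumor libraries, among them the guanylin gene Guca2a (78.1 to 175 CPM against 794 in the normal colon), the phosphate transporter Slc20a1 (30.7 to 78.8 against 737), the chloride exchanger Slc26a3 (7.24 to 56.0 against 627), the carbonic anhydrase Car4 (1.06 to 43.8 against 228) and the water channel Aqp8 (4.94 to 16.4 against 217). In contrast, Emp1, Dhrs9 and Ly6g6c were higher, with Emp1 at 184 to 445 CPM against 36.1. Krt20, the keratin of differentiated colonocytes, was at 262 to 1324.4 CPM in the tumors and 305 in the normal colon. None of 9 brush border genes passed in either direction, and 3 of 12 stem and WNT genes, Prox1, Notum and Nkd1, were higher. No cycling gene of 10 and no regulator of colonocyte differentiation of 9 passed, although the regulators had a median of -1.1. Among relatives of the 9 genes, Gsdma, Ly6d and Tgm1 were higher, of 12 tested.

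The normal colonocytes fell into 2 clusters that used different members of the set. Cluster N0 (183 cells, led by Saa1 and Sprr2a1) had 14831 CPM summed over the surface list and 31.3 over the cycling list, and cluster N1 (148 cells, led by Nxpe2, Gpx2 and Edn2) had 2854.2 and 652. Tgm3 was at 3444.2 CPM in N0 and 243 in N1, so that N0 held 92.3% of its UMIs. Lypd8 and Muc3 were also higher in N0, at 12171 against 2187.6 CPM and 5382.2 against 2311.7. Clca3b was the reverse, with 13.2 CPM in N0 and 645 in N1, which held 98.3% of its UMIs. The gasdermins were spread over both clusters, with Gsdmc4 at 1478.5 and 670 CPM, Gsdmc2 at 580 and 421 and Gsdmc3 at 266 and 201. For Clca3b the data of the normal colon therefore go against the name surface gene. The few Clca4 UMIs there, 8 of Clca4a and 6 of Clca4b, were all in N1, so that the normal colon gives no ground for the name in the Clca4 genes either.

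In the day 6 tumor the Clca4 genes and the gasdermins had their highest levels in different clusters. Cluster T13 (253 cells, 18.6% of columnar cells, led by Ifit1bl1, Gbp2, Saa1 and Ido1, genes of interferon and acute phase responses) had the highest summed level of the surface list of all columnar clusters, 17264 CPM. The sum does not rest on the same genes in tumor and normal cells. Over all columnar cells of day 6, Plac8 was at 3152.1 CPM against 1412.7 in the normal colon, and Slc26a3 at 56.0 against 627. T13 read Clca4a at 661 CPM and Clca4b at 3649.7 CPM, and held 93.2% and 76.4% of their UMIs on day 6. Cluster T11 (275 cells, 20.3%, led by Adh1, Selenbp1 and Pigr) read Clca4a at 10.3 CPM, but Gsdmc2 at 629.8, against 221 in T13, and Gsdmc3 at 165, against 32.8. T11 held 70.2% of the Gsdmc2 UMIs of day 6, 2.45% of those of Clca4a and 14.9% of those of Clca4b. T11 and T13 were deeper than the remaining cluster T0, with medians of 14174 and 8142 UMIs per cell against 1373. Their shares of UMIs are therefore raised beside their shares of cells. By level, Gsdmc2 at 629.8 CPM in T11 stood against 460.2 in all columnar cells of day 6. Gsdmc4 was also highest in T11, at 990 CPM, but stood at 778 in T0 and 528.5 in T13. Clca4b was less divided than Clca4a, at 421 CPM in T11 and 792 in T0. In T11 Gsdmc2 was no lower than in N0 of the normal colon (580 CPM). Gsdmc4 and Gsdmc3 were lower in T11 than in N0 (1478.5 and 266 CPM).

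Lypd8, Clca3b and Muc3 were read in both of these clusters. Lypd8 was at 33490 CPM in T13 and 12016 in T11, Clca3b at 1100.3 and 703, and Muc3 at 3193.8 and 2356.2. Tgm3 reached 190.5 CPM in T13 and 74.6 in T11, still below the 3444.2 CPM of N0. T13 thus held 54.4% of the Tgm3 UMIs of day 6 together with most of those of the Clca4 genes. The remaining and most numerous cluster, T0 (806 cells, 59.4%), was shallow, with a median of 1373 UMIs, and read the genes at levels between those of T11 and T13, except for Clca3b (620 CPM) and Tgm3 (65.2 CPM), which were lower.

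On day 1, among clusters with at least 20 cells in a library, the highest levels of both groups stood in the same clusters. Smaller clusters are not given, and in replicate 1 they held part of the UMIs. Cluster T15 held 205 cells, or 16.7% of columnar cells, of replicate 2 and was led by Reg3b. It read Clca4a at 465 CPM, Clca4b at 444, Gsdmc2 at 337, Gsdmc4 at 244 and Lypd8 at 6821.7, and held 84.6% of the Clca4a UMIs and 71.2% of the Gsdmc2 UMIs of its library. T15 was also the deepest of the clusters given for that library, with a median of 14922 UMIs, which raises its shares of UMIs. In replicate 1 the 34 cells of cluster T10 (12.5%) read Clca4a at 228 CPM, Clca4b at 405, Gsdmc2 at 619, Gsdmc4 at 844 and Muc3 at 3291.8, and held 38.2 to 62.7% of the UMIs of each gene but Tgm3. On day 3, T10 had 263 cells with Gsdmc2 at 383 CPM, Gsdmc4 at 465, Clca4a at 66.3 and Clca4b at 133. It again read these genes above the other day 3 clusters, T4 (385 cells, Clca4a at 8.34 CPM) and T14 (202 cells, 7.35 CPM). Different clusters thus made up most columnar cells of each library: T1 in day 1 replicate 1, T5, T1 and T7 in replicate 2, T4 and T10 on day 3 and T0 on day 6.

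Most of the 9 genes were lowest in cluster T1 on day 1, led by Mt4, Wif1, Dkk2 and Prox1, which held 154 and 344 cells of the day 1 replicates. Its stem and WNT genes summed to 5485 and 6047 CPM. Gsdmc2 was at 32.2 and 19.8 CPM there, Clca4a at 3.12 and 7.27, Muc3 at 120.5 and 83.2, and Lypd8 at 617 and 535. Tgm3 was an exception in replicate 2, at 6.52 CPM in T1 (interval 4.26 to 9.55, 26 UMIs) against 1.21 to 1.59 in T5, T7 and T15, as was Clca4b there, at 13.5 CPM in T1 and 13.0 in T5. In replicate 1, cluster T14 was below T1 in Gsdmc3, at 3.65 against 5.71 CPM, and in Tgm3, with 0 UMIs against 2. T0 and T1 are the 2 low-confidence clusters, each with 1 marker of another cell type (Zg16 and Prox1) among its 10 leading genes against all other cells and none against non-epithelial cells. T1 was named columnar only at a lower fold limit (mean log2 fold of 0.2, 3 markers). In the clustering at resolution 2, clusters of 139 and 105 cells that shared leading genes with T1, such as Mt4 and Dkk2, stayed unnamed. They held 111 and 102 cells of day 1 replicate 2, so that the class of many T1-type cells depends on the clustering. At resolution 2 a day 6 cluster of 505 cells, led by genes that also led T0 such as Pigr and Zg16, was named goblet-like on 3 markers, so that the class of many cells of T0, 59.4% of the columnar cells of day 6, depends on the clustering.

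**Figure D2:**
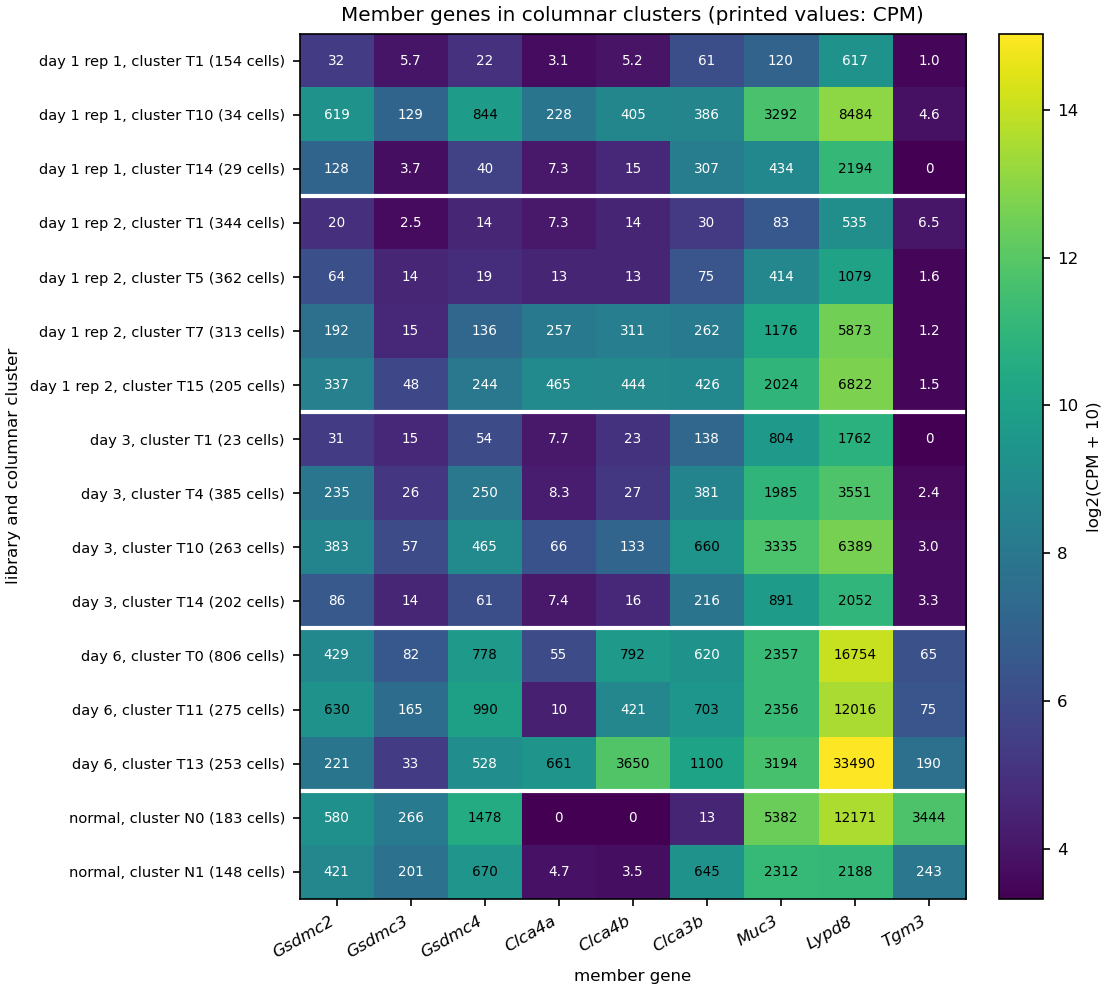
Level of each gene, as log2 of CPM with 10 added, in each columnar cluster with at least 20 cells, by library. On day 6 the row T13 is high in Clca4a and Clca4b and the row T11 in the gasdermins, and Tgm3 is high in the normal row N0.

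Cells were also ranked within each library by their surface list, and the top 20% were compared with the rest. This class is a range of a score and not a cell type, and 12, 62, 60, 121 and 22 cells lay within 10% of the limit in day 1 replicates 1 and 2, day 3, day 6 and the normal colon. Clca4a was 47.7 and 61.7 times higher in the surface-high cells on day 1, 16.5 times on day 3 and 19.4 times on day 6. Clca4b was 32.8, 22.1, 5.11 and 5.68 times higher in the same order. Lypd8 was higher in the surface-high cells of all 5 libraries, from 2.39-fold on day 6 to 11.1-fold in day 1 replicate 1, and so was Muc3, from 1.42-fold to 7.57-fold. Tgm3 was 3.01 times higher on day 6 and 3.02 times higher in the normal colon. In day 1 replicate 2 it was 0.117 times the rest (interval 0.00289 to 0.697), with 1 UMI in the surface-high cells, and in day 1 replicate 1 and day 3 the interval of the ratio included 1.

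The gasdermins changed side between libraries. In surface-high cells Gsdmc2 was 10.9 and 2.46 times higher on day 1 and 2.44 times higher on day 3, but was 0.452 times the rest on day 6 and 0.538 times in the normal colon. Gsdmc3 was at 7.44, 1.60, 1.83, 0.271 and 0.426 times the rest in the same order. Gsdmc4 was at 22.1, 2.56, 2.89, 0.628 and 0.904 times. On day 6 the cells with the most surface program were thus not those with the most gasdermin RNA. In the normal colon this held for Gsdmc2 and Gsdmc3, while the interval of Gsdmc4 (0.810 to 1.01) included 1, and by cluster all 3 gasdermins were higher in N0 than in N1, so that the side they took there depends on how surface cells are set apart. Clca3b was 1.503 to 2.76 times higher in surface-high cells of the tumors and 0.0124 times the rest in the normal colon.

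Among the top 20% of cells by stem and WNT genes, the ratio of each of the 9 genes to the rest of its tumor library was below 1, from 0.0301 times for Clca4a in day 1 replicate 2 to 0.952 times for Clca3b on day 6. Tgm3 had 0 UMIs in these cells of day 1 replicate 1 and 1 UMI on day 3. The counting interval included 1 for both of these ratios (0 to 3.01 and 0.00901 to 2.60) and for Clca3b on day 6 (0.895 to 1.01). In the normal colon Clca3b was 7.68 times higher in the stem-high cells, and the gasdermins, Muc3, Lypd8 and Tgm3 were lower (0.0864 to 0.415 times). Cycling-high cells of the tumors were low in Clca4a (0.0311 to 0.141 times the rest), while Muc3 was at 1.23 and 1.17 times the rest on day 1, 0.870 on day 3 and 0.579 on day 6, and Clca3b at 1.83, 1.251, 0.999 and 0.697 times. Both classes rest on few UMIs per cell. In day 1 replicate 2, 501 of 1231 columnar cells had no cycling UMI, and on day 6, 652 of 1357 had no stem and WNT UMI. Cycling-high cells were shallower than the rest in each library, with medians of 2366 against 6707.5 UMIs in day 1 replicate 2.

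**Figure D3:**
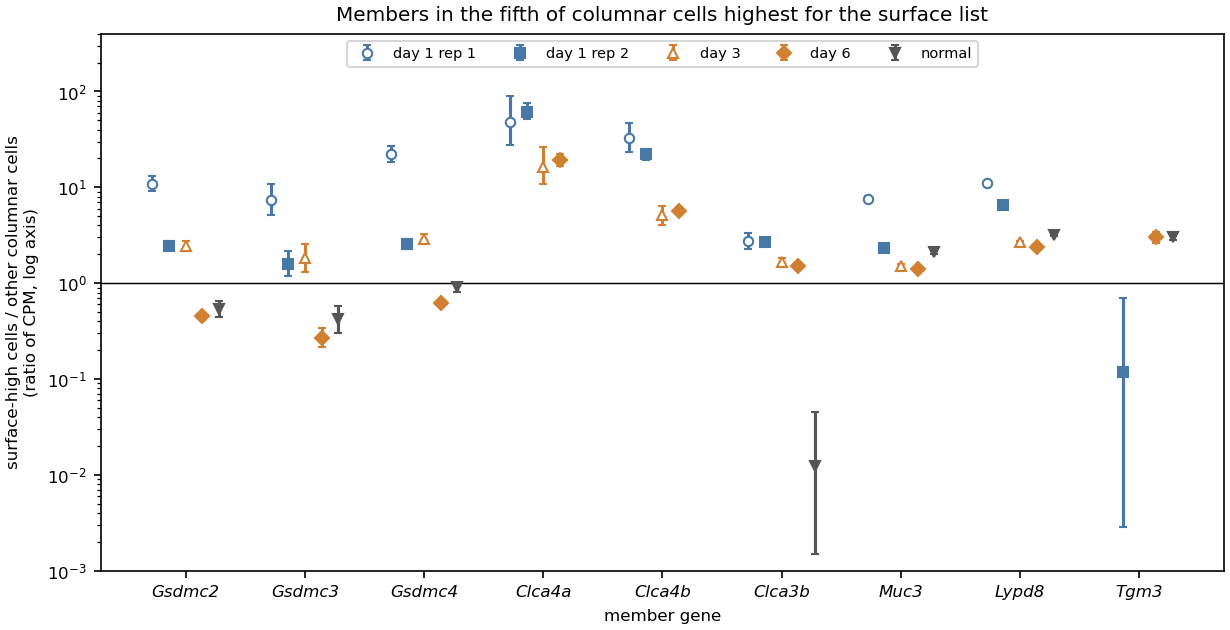
Ratio of the level (CPM) in surface-high columnar cells to that in the remaining columnar cells, on a log axis, for each gene and library. Ratios for Clca4a and Clca4b lie above 1 in the 4 tumor libraries, while the gasdermins lie above 1 on days 1 and 3 and below 1 on day 6 and in the normal colon, where the interval of Gsdmc4 includes 1.

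Shares of cells with a UMI were compared after each cell was thinned to 1000 UMIs, which left out 126 columnar cells of day 6 and 7 of the normal colon. Tgm3 was seen in 0 of 273 columnar cells of day 1 replicate 1, which allows a share of up to 1.10%, in 0.244% in replicate 2, 0.566% on day 3, 6.82% on day 6 and 54.0% in the normal colon. Normal fibroblast-like cells, which should lack it, had a share of 1.85%, at a median depth of 2418 UMIs against 6076.5 in normal columnar cells. Before thinning, the shares of columnar cells were 2.56, 0.975, 1.13, 21.5 and 64.5%. Clca4b was seen in 8.43 and 8.77% of columnar cells on day 1, 5.10% on day 3, 50.5% on day 6 and 0.309% in the normal colon, where 1 of 324 cells had a UMI. Fibroblast-like cells had a Clca4b share of 17.7% on day 6 and 6.67% on day 3, and the day 3 share of columnar cells was no higher than that background. Lypd8 was seen in 53.9 to 98.0% of tumor fibroblast-like cells, so that its shares of cells say little.

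Among day 6 columnar cells with a Clca4a UMI (142 cells), 87.3% also had Clca4b (interval 80.7 to 92.3), against 45.7% (42.7 to 48.7) of those without. Gsdmc2, in contrast, was seen in 17.6% (11.7 to 24.9) of cells with Clca4a and in 33.7% (30.9 to 36.6) of those without. This did not extend to Clca4b. Gsdmc2 was seen in 33.0% (29.3 to 36.8) of day 6 cells with Clca4b and in 30.7% (27.1 to 34.5) of those without. In day 1 replicate 2 Gsdmc2 and Clca4a were not divided, with Gsdmc2 in 16.5% (9.53 to 25.7) of cells with Clca4a and 8.77% (7.19 to 10.6) without. Clca4b was seen in 69.1% (58.0 to 78.7) of the 84 day 6 cells with Tgm3 and in 49.2% (46.2 to 52.1) of those without. Normal cells with Tgm3 had Clca3b in 4.0% (1.62 to 8.07), against 30.9% (23.6 to 39.0) of those without Tgm3.

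Over 14 sums of columnar cells by library and cluster, the levels of Gsdmc2 and Gsdmc4 correlated at 0.96, those of Clca4a and Clca4b at 0.85 and those of Clca3b and Tgm3 at -0.12 (Pearson, log2 scale). Over the 12 tumor sums alone the last pair correlated at 0.58. Gsdmc2 correlated with Clca4a at 0.29 over the 14 sums and 0.51 over the tumor sums, and with Clca4b at 0.43 and 0.74. The sums share libraries, depth and free RNA, and no test was made. Of 11962 genes, the most alike were Itih5 for Gsdmc4 (0.988), Ethe1 for Gsdmc2 (0.961), the water channel Aqp4 for Gsdmc3 (0.982), Itpripl2 for Clca4a (0.955) and Adgrf1 for Clca4b (0.978). They were Ddah1 for Clca3b (0.902), the serine protease Tmprss2 for Muc3 (0.971), Serpinb1a for Lypd8 (0.968) and Tm4sf20 for Tgm3 (0.968).

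Between early and late treatment, levels of the 9 genes were higher in the late libraries on average, by 4.66 on the log2 scale for Tgm3 (SE 1.49), 2.97 for Clca4b (SE 1.24), 2.52 for Lypd8 (SE 0.86), 2.4 for Clca3b (SE 0.48), 2.12 for Gsdmc4 (SE 0.72), 1.77 for Muc3 (SE 0.48), 1.69 for Gsdmc3 (SE 0.66), 1.5 for Gsdmc2 (SE 0.48) and 0.71 for Clca4a (SE 0.89). No p is given for them, since they were chosen on these libraries, and the SE, taken from the same fit, is a description. Of 13493 genes, 0% passed an adjusted p of 0.05 in edgeR with 2 libraries against 2, with 2274 genes at an unadjusted p under 0.05, and DESeq2 called 672. The median change was 2.12 over the 9 genes and 0.02 over all genes. Without day 6, the changes were -1.17 for Clca4a, -0.51 for Clca4b, 0.39 for Tgm3, 0.94 for Gsdmc2 and 1.01 for Lypd8, so that the values of Clca4a, Clca4b and Tgm3 rest on day 6.

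Within single index libraries (day 3 minus day 1 replicate 1) the changes were 0.41 for Tgm3, -0.22 for Clca4b, -0.15 for Clca4a, 0.67 for Gsdmc2, 0.17 for Gsdmc3, 0.58 for Gsdmc4 and 1.06 for Lypd8. Within dual index libraries (day 6 minus day 1 replicate 2) they were 5.09, 3.66, 0.91, 2.22, 2.84, 3.57 and 3.19. Clca3b (2 and 2.65) and Muc3 (1.43 and 2.11) had the highest differences within single index libraries. By list, 18 of 19 surface genes were higher in the late libraries, with a median of 1.02, all 9 brush border genes (1.29) and all 10 cycling genes (1.86), while 1 of 12 stem and WNT genes was (-1.87). No gene of any list passed the test.

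Squamous-like cells of the tumors had lower levels of 8 of the 9 genes than columnar cells. Squamous-like cells, named from keratins and other genes of stratified epithelium, numbered 52, 189, 287 and 735 in the 4 tumor libraries. The genes were chosen on columnar cells and not on squamous-like cells. A lower level in another cell class is therefore in part given by that choice, and the calls below are not independent support for it. Muc3 was at 172, 158, 1155.4 and 203 CPM in squamous-like cells of day 1 replicates 1 and 2, day 3 and day 6, against 1052.6, 835, 2263.2 and 2554.3 CPM in columnar cells. Clca4b was at 10.9, 21.3, 27.2 and 78.1 CPM against 108, 161, 74.1 and 1451.4. Gsdmc2 was at 27.3, 18.4, 99.6 and 73.1 CPM against 202, 139, 256 and 460.2. These 3 genes were lower in squamous-like cells of each library. Their squamous-like levels were 0.446 to 0.915 times those of the non-epithelial cells of the same library, no higher than free RNA.

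In edgeR's quasi-likelihood test with the library as a block, 8 of the 9 genes were lower in squamous-like cells, where 16.0% of 12113 genes passed in either direction and 8.54% were lower. The log2 change was -3.45 for Clca4a (SE 0.52, adjusted p = 0.00402), -2.96 for Clca4b (SE 0.48, 0.00553), -2.4 for Gsdmc4 (SE 0.32, 0.00241), -2.35 for Gsdmc2 (SE 0.29, 0.00196), -2.34 for Muc3 (SE 0.43, 0.00873), -2.22 for Gsdmc3 (SE 0.45, 0.0128), -1.77 for Lypd8 (SE 0.32, 0.00841) and -1.5 for Clca3b (SE 0.23, 0.00478). Tgm3 gave -0.72 (SE 1.19, adjusted p = 0.761). Its squamous-like level was 10.9 and 10.6 CPM in the day 1 replicates and 3.29 on day 3, above the columnar cells, and 9.32 on day 6, below them, and the test did not show a difference. Against non-epithelial cells these levels were 2.75, 6.22, 2.11 and 0.418 times, on 4, 11, 4 and 43 UMIs. Without day 1 replicate 1 the adjusted p was 0.0610 for Muc3 and 0.0650 for Lypd8, and without day 1 replicate 2 it was 0.0512 for Gsdmc3. Without the library block, Clca4a kept its call and the other 7 lost it, with adjusted p from 0.0738 to 0.280.

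The lists moved in part with the set. In squamous-like cells 6 of 18 surface genes were lower, among them Plac8 (-1.22, adjusted p = 0.0168), Krt20 (-1.55, 0.00277), Car1 (-1.68, 0.00494) and Slc26a3 (-2.74, 0.0166), and Ly6g6c was higher. Of 9 brush border genes 8 were lower, as were 8 of 12 stem and WNT genes, and 0 of 10 cycling genes passed. Of 14 relatives 4 were higher, namely Clca2 (5.12, adjusted p = 0.00115), Ly6d (3.55, 0.00104), Tgm1 (3.70, 0.00112) and Tgm5, and 4 were lower, Gsdma, Gsdmd, Clca3a2 and Muc13. Clca2, Ly6d and Tgm1 are known from stratified epithelium. Among the regulators Hnf4a (-2.18, 0.00962), Hnf4g, Cdx1 and Cdx2 (-1.36, 0.0492) were lower, and Maf was higher. The adjusted p values are those of edgeR over all genes tested.

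**Figure D4:**
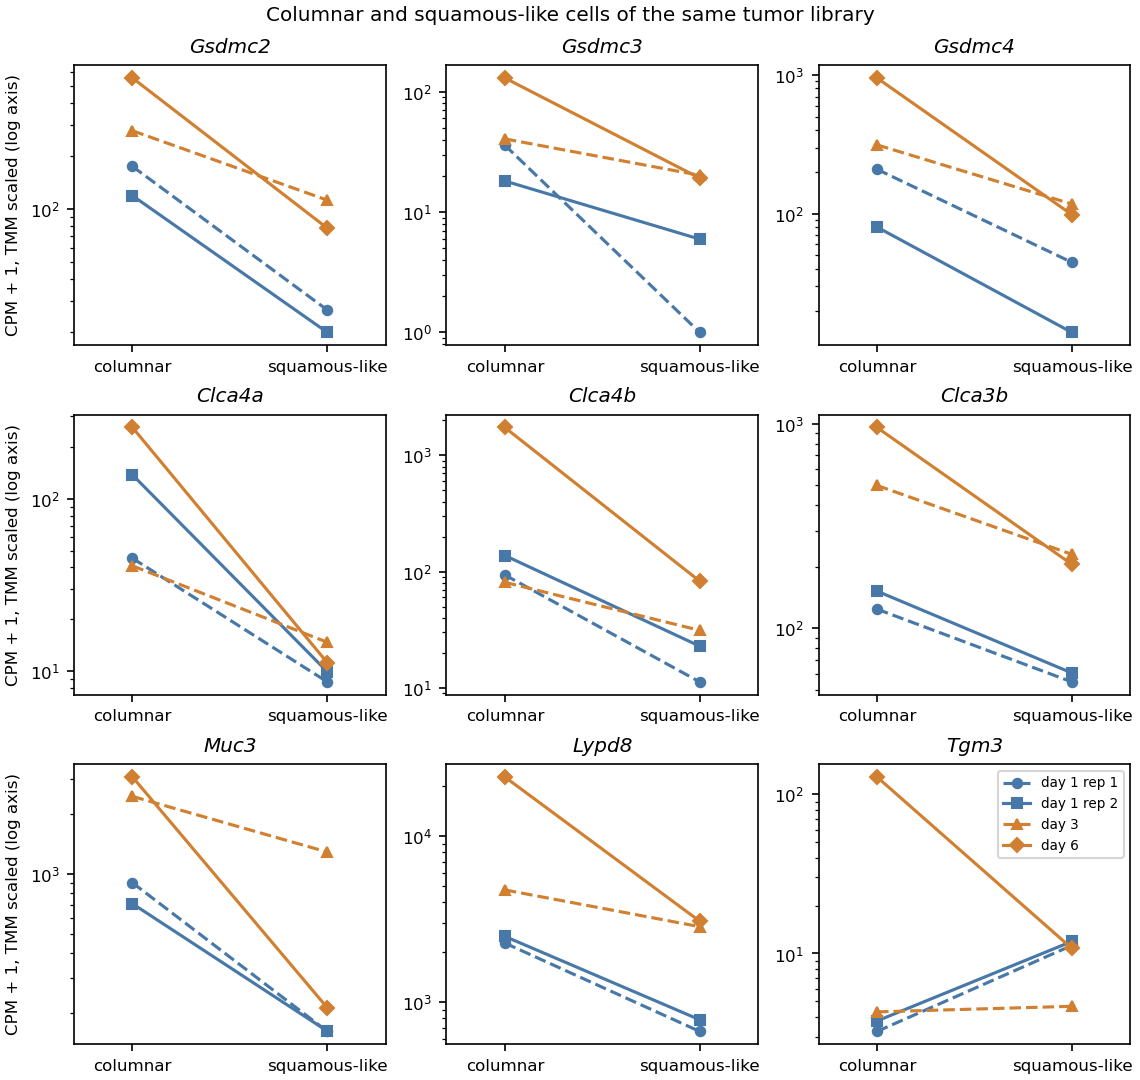
TMM-scaled CPM with 1 added (log axis) of each gene in columnar and in squamous-like cells, joined by a line within each tumor library. Lines fall from columnar to squamous-like cells in each library for each gene but Tgm3, which rises in 3 libraries and falls on day 6.

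Other epithelial cells also read some of these genes. Paneth-like cells of day 1 replicates 1 and 2 and of day 3 read Lypd8 at 3991.8, 3366.7 and 3213.3 CPM, and goblet-like cells of the day 1 replicates and day 6 at 3777.9, 4985.8 and 7769.6 CPM. On day 1 these levels were above those of the columnar cells, 2654.7 and 2941.1 CPM. Goblet-like cells of the normal colon read 1781.8 CPM, below the 6774.8 CPM of columnar cells. In day 1 replicate 1, Paneth-like cells also read Gsdmc2 (249 CPM against 202 in columnar cells), Gsdmc4 (261 against 243) and Clca3b (177 against 144), and the 11 enteroendocrine-like cells read Gsdmc3 at 111 CPM (interval 62.2 to 183) against 40.9 and Clca3b at 230 against 144. Of these, only the counting interval of Gsdmc3 did not overlap that of the columnar cells. Tgm3 had 0 UMIs in the Paneth-like cells of day 1 and day 3.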

How the data were processed

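Per the labels and the study's methods, the authors deposited raw UMI counts per barcode and gene for 5 inDrop libraries, made with dropEst on GRCm38 and not normalized. Here, barcodes under 500 genes or over 15% mitochondrial counts were removed. The 4 tumor libraries were clustered together and the normal library alone (scikit-learn 1.9.0, igraph 0.11.9, leidenalg 0.10.2, 20 components, 20 neighbours, resolution 1). The 2000 variable genes left out the 9 genes and all genes of the gene lists. Except for markers, the same genes were also left out of the leading genes given for clusters. Clusters were named from marker lists, with at least 3 markers each. Scrublet (scanpy 1.11.5) called 12 tumor and 7 normal cells as doublets. With 0.162% of tumor cells the caller did not work there, and no cell was removed.

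Counts were summed per library and class. Classes and treatment groups were compared in R 4.3.3 by the quasi-likelihood test of edgeR 4.0.16 after TMM scaling and filterByExpr. Adjustment was by Benjamini-Hochberg with a threshold of 0.05, and DESeq2 1.42.0 was an alternative. The SE of a log2 change is its absolute size divided by the square root of the quasi-likelihood F value. Both tests were checked before use on simulated counts with planted changes and the same spread between libraries for every gene. That check does not show how they perform on libraries that differ as these do. Treatment days were called biological replicates in the study. With 1 normal library, comparisons with it have no test. Folds carry exact 95% intervals, which cover counting error only. A gene needed 20 UMIs in the normal sum or in each tumor sum. A count of 0 was given the limit of 3 counts.

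All 9 genes are named. Values were to be given for up to 5 genes of a list in order of total UMIs. The text gives genes past the criterion instead, and these and other names were chosen in part after their values were seen. The 9 genes and the gene lists were chosen with earlier results of these data known. For each gene the 3 most correlated genes were found and the first is named. Promoter windows are from RefSeq (GRCm38.p6), gene positions from GENCODE. Alternatives were DESeq2, no low-count filter, leaving out each library, index structure or no library block, a stricter columnar class, clustering at resolution 0.5 and 2, and cells with at least 1000 genes. Some genes of the lists and clusters are not reported here.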

Additional observations from a re-analysis of the deposited data

Results flagged for a closer look

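Over the 4 tumor libraries, columnar cells of day 6 stood apart from the other 3 for Tgm3, Clca4b and Lypd8. The gap between day 6 and the next library, as a share of the whole range of CPM, was 0.994 for Tgm3 (106 CPM against 2.62 to 3.27), 0.937 for Clca4b (1451.4 against 74.1 to 161) and 0.893 for Lypd8 (19046.3 against 2654.7 to 4401.9), which is what Dixon's rule for an outlying value looks for. The genes were chosen from these same levels, so that this is a description and not a test. In groups not chosen in this way chance flags about 1 in 20, and the 3 genes were read in the same libraries. Day 6 is also 1 library and 1 time point, and these cannot be told apart here. It is a dual index library, as is day 1 replicate 2, where Tgm3 stood at 3.27 CPM, Clca4b at 161 and Lypd8 at 2941.1. The part of the index in the gap was not tested.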

How the results depend on the processing

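Of the changes between late and early libraries, several rest on which cells and libraries enter. That of Clca4a was -0.22 with a stricter columnar class, -0.07 without clusters T0 and T1 (chosen after seeing the data), -1.17 without day 6 and 1.72 without day 1 replicate 2. That of Clca4b was -0.51 without day 6 and 3.91 without day 3. The count of genes called, 0 at first, was 672 with DESeq2, 1171 with no filter on low counts, 517 with index structure as a term and 12 to 1893 when each library was left out. For Tgm3 in squamous-like cells DESeq2 gave 0.33 (adjusted p = 0.876). The count of genes called in squamous-like cells was 2987 with no filter, 673 with no library block and 993 to 1654 when each library was left out. Against the normal colon, Clca3b was 4.25 at resolution 0.5, where the N1-type cells joined the goblet-like cluster, 0.21 with the stricter class, 0.23 without T0 and T1, and 0.19, 0.08 and -0.63 without day 1 replicate 1, day 1 replicate 2 and day 6. Lypd8 was 0.03 under both of the choices of cells. The cause of the other shifts was not tested. The libraries could not be paired by replicate number, because early and late libraries share fewer than 2 replicate numbers. The index structure does pair them, and the fit with it as a term is the one that called 517 genes. Free RNA limits low values in the tumor libraries most.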
